A study of Homo sapiens with 8 samples.

Results

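Weakly labelled wells were analysed: the wells of all 8 plates that held at least 1000 and under 5000 molecules on chromosomes 1 to 22, where a molecule is 1 sequenced fragment. There were 1516 such wells among 3023, which is 50.1% of all wells, and they carried 11.7% of the autosomal molecules. They were chosen by their measured number of molecules, so that number describes them and supports no comparison. The study used RPE-1 hTERT, a telomerase-immortalised line of human retinal pigment epithelial cells, as wild type (WT) and as cells lacking CFAP20 (CFAP20-KO). All cells received a single pulse of EdU, a thymidine analogue, of 15 min at 10 µM and no other treatment, and single-cell EdU sequencing (scEdU-seq) recovered labelled DNA from single sorted cells. The sources used here do not say whether the knockout is 1 clone or whether plates are separate cultures, so the p-values measure the spread between plates. Each plate carries both genotypes by its title, although the genotype field names CFAP20-KO throughout, and the genotype of each well was therefore taken from the deposited column. The weak wells comprised 709 CFAP20-KO and 807 WT wells, 165 to 219 per plate.

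EdU is built into DNA wherever replication forks move during the pulse, so a cell in S phase yields runs of neighbouring labelled fragments, called tracks here, at the places being copied at that moment. Gene-rich, transcribed DNA replicates early in S phase, while gene-poor DNA, large neuronal genes, pericentromeric repeats and the inactive X chromosome replicate late. Common fragile sites are chromosome regions that tend to break under replication stress, and many of them lie in long genes that replicate late. A cell in which no forks move during the pulse makes no such tracks, and background fragments recovered from it need not follow timing. CFAP20 is known as a protein of cilia and has been tied to transcription by RNA polymerase II.

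For comparison, 482 wells with at least 300 and under 1000 autosomal molecules are called near-unlabelled and 914 wells with 5000 or more are called strong. The median weak well held 1617.5 autosomal molecules, against 768 in near-unlabelled and 20745 in strong wells. Most weak wells lay low in the range, with 651 under 1500 molecules and 53 at 4000 or more. Median molecules per weak well were 1617 ± 168 in CFAP20-KO and 1611 ± 134 in WT (SD, n = 8 plates). The share of wells that were weak was 49.3% ± 6.30 in CFAP20-KO and 50.7% ± 6.00 in WT. Well barcodes repeat between plates, 377 of 378 occurring in all 8, because they mark positions and not cells. Per plate, 1.91% to 3.59% of the fragments of weak wells also occurred in another well of that plate, and 2.36% to 4.37% in the wells of any 1 other plate. The CFAP20 gene itself held 11 molecules in all weak wells together, and recovered nascent DNA gives no check of the knockout.

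Clustering was measured as a pair ratio: pairs of molecules per kb of separation at 5 to 20 kb, divided by pairs per kb at 400 to 500 kb, in the same well and autosome. An even scatter gives a ratio near 1. The plate median of this ratio in weak wells was 2.37 ± 0.135 (SD, n = 8 plates), close to 2.29 ± 0.339 in near-unlabelled wells and under the 5.56 ± 0.198 of strong wells. Weak and near-unlabelled wells differed by 0.06 on the log2 scale with plates on both sides of 0, which is within the spread between plates (two-sided exact permutation of signs over 8 plates, p = 0.422, adjusted p = 0.422 over 4 comparisons of classes). Weak wells lay below strong wells by 1.23 on the log2 scale in 8 of 8 plates (exact p = 0.00781, the smallest that 8 plates allow, adjusted p = 0.0104). Depth did not remove this gap: with every well thinned to 1000 molecules the ratio was 2.39 ± 0.152 in weak and 5.64 ± 0.224 in strong wells.

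Much of the clustering in weak wells was lost without 22 bins of 200 kb that held more than 3 times the median count, the fullest of them at the edges of centromeric repeats. In weak wells the bin at chromosome 16:46200001-46400000 (GRCh38) held 44.5 times the molecules of a mean window, the bin at chromosome 10:41800001-42000000 held 35.7 times and the bin at chromosome 5:49600001-49800000 held 32.3 times. The same bins stood at 38.1, 26.6 and 23.3 times in near-unlabelled wells and at 34.5, 39.3 and 31.1 times in strong wells. Without these bins the median ratio of weak wells was 1.55 ± 0.0700, of near-unlabelled wells 1.52 ± 0.129 and of strong wells 4.71 ± 0.155. A ratio of at least 3 was reached by 31.7% ± 5.00 of weak, 35.7% ± 7.89 of near-unlabelled and 98.7% ± 0.869 of strong wells, and without the bins by 10.2% ± 2.65, 14.7% ± 6.85 and 90.3% ± 2.81. A well with few molecules has few pairs, so its ratio scatters more and can pass 3 without tracks. What this scatter adds to the shares of classes of unlike depth was not tested. Wells that reached 3 without the bins are called track-bearing, a name for the limit only, and 156 weak wells were (64 CFAP20-KO and 92 WT). The ratio without the bins had no gap at 3: it ran from 0.370 to 76.9, and 70 weak wells lay between 2.5 and 3.5.

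The track-bearing share rose through the range of molecules that defined the wells. It was 5.84% of wells from 1000 molecules, 6.92% from 1500, 10.3% from 2000, 26.5% from 3000 and 64.2% from 4000 to the upper limit. In number, 38 track-bearing wells lay under 1500 molecules and 34 at 4000 or more, so the share was low where most wells lay. At the lower limit, 11.4% of the 105 wells from 900 to under 1000 molecules and 3.28% of the 122 wells from 1000 to 1099 were track-bearing. At the upper limit, the share was 62.5% of the 24 wells from 4500 to under 5000 and 61.1% of the 18 wells from 5000 to 5499.

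**Figure D1:**
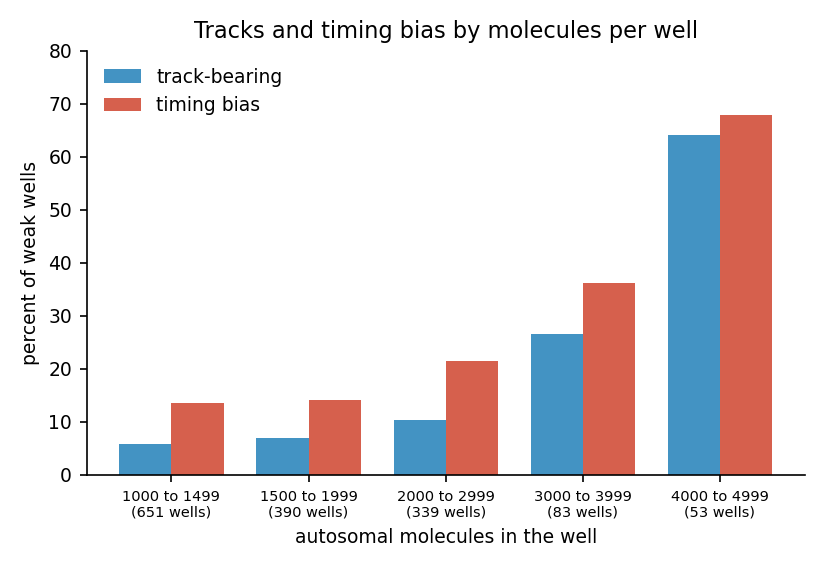
Percent of weak wells, pooled over 8 plates and both genotypes, that were track-bearing (pair ratio of at least 3 without high-count bins) or had a timing bias, by number of autosomal molecules in the well; bars start at 0 and have no error bars because wells are pooled. Both shares are lowest under 1500 molecules (5.84% and 13.5%) and highest from 4000 (64.2% and 67.9%).

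The shape of the pair excess gave a track width, the distance at which the pooled excess falls to 50% of that at 5 to 10 kb. It was 16.4 ± 1.48 kb in weak wells and 15.9 ± 0.222 kb in strong wells (SD, n = 8 plates), and 19.98 ± 1.94 kb and 16.8 ± 0.349 kb without the high-count bins. Near-unlabelled wells gave 15.5 ± 1.20 kb with the bins and 18.5 ± 4.10 kb without them. The width of weak wells exceeded that of strong wells in 7 of 8 plates without the bins, and the classes were not tested against each other on it. Wells with more molecules or stronger clustering add more pairs to the pool, so the width need not be that of a typical weak well.

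Replication timing was read from the strong wells. For each plate, 500 kb bins were ranked from 0 (earliest) to 1 (latest) by a correspondence analysis of the strong wells of the other 7 plates, with the gene-rich end called early. A well then has a mean timing and a spread (SD) of timing over its molecules, and an even scatter over the genome gives 0.5 and 0.2887. Weak wells had a mean timing of 0.523 ± 0.00323 and a spread of 0.276 ± 0.00239 (SD, n = 8 plates). The spread was lower than the 0.280 ± 0.00187 of near-unlabelled wells in 8 of 8 plates, with a difference of -0.00452 ± 0.00183 (two-sided exact permutation of signs, p = 0.00781, adjusted p = 0.0104). It was higher than the 0.190 ± 0.00627 of strong wells in 8 of 8 plates, by 0.0857 ± 0.00818 (exact p = 0.00781, adjusted p = 0.0104). Weak wells as a whole were thus close to an even scatter, with a small narrowing that near-unlabelled wells had less of.

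By fixed limits, a well was called early below a mean timing of 0.4, late above 0.6, middle between these with a spread under 0.25, and even otherwise. Of the 1516 weak wells, 43 were early, 103 middle, 136 late and 1234 even. The share with a timing bias, meaning any class but even, was 18.3% ± 5.57 in weak wells, from 12.1% on plate 5 to 28.8% on plate 8. It was 13.03% ± 5.07 in near-unlabelled and 97.9% ± 1.44 in strong wells. These classes are ranges of a continuous measure: 47 weak wells lay within 0.02 of the early limit, 139 within 0.02 of the late limit, and 217 of those between both limits had a spread within 0.01 of 0.25. Like the track-bearing share, the biased share rose with molecules, from 13.5% under 1500 to 67.9% from 4000.

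**Figure D2:**
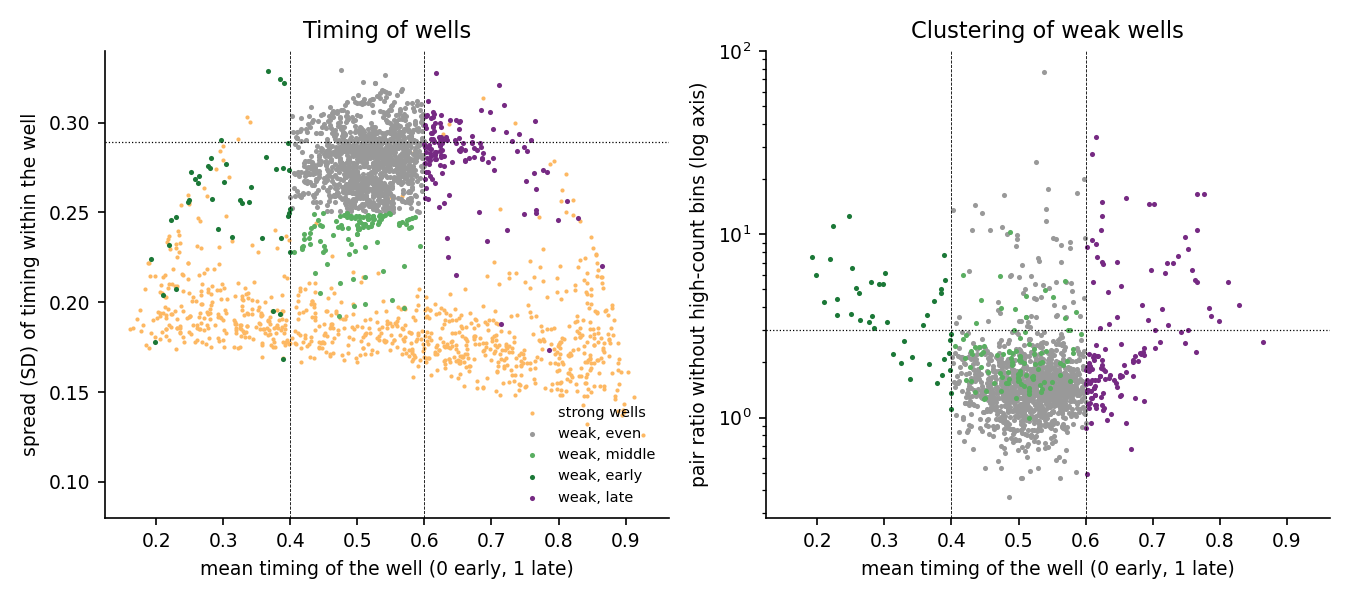
Left, mean timing and spread of timing of each weak well (grey even, light green middle, dark green early, purple late) and each strong well (orange); the dotted line marks the spread of an even scatter and dashed lines the limits at 0.4 and 0.6. Right, mean timing and pair ratio without high-count bins (log axis) of the same weak wells, with a dotted line at 3. Most weak wells form 1 cloud around a mean timing of 0.523 and a spread of 0.276, above the band of strong wells.

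The early wells put 25.7% of their molecules in the earliest 10% of the genome and 4.20% in the latest 10%. The late wells put 4.88% in the earliest and 27.3% in the latest. Middle wells peaked at 14.4%, at a timing of 0.4 to 0.5, and even wells ran from 8.06% in the earliest to 11.03% in the latest. The even wells were therefore not quite flat but slightly short of the earliest DNA. Near-unlabelled wells had a like lack, with 8.74% ± 0.348 of molecules in the earliest 10%, and all weak wells together had 8.07% ± 0.244 there.

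**Figure D3:**
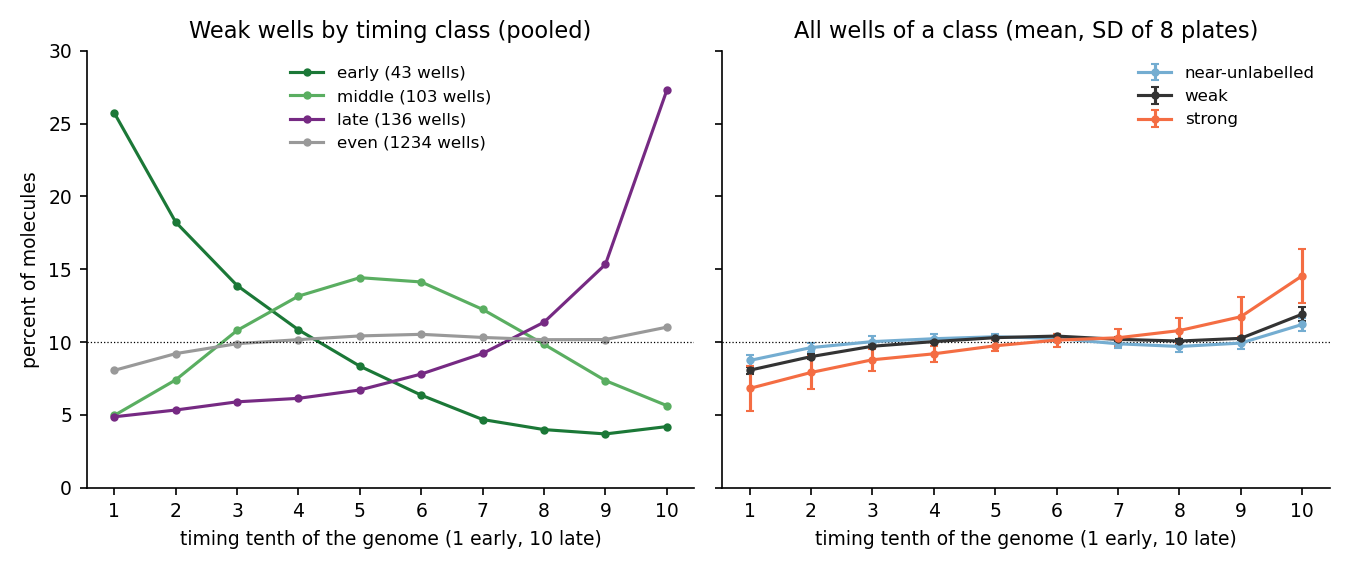
Left, percent of molecules in each 10% step of the genome by timing for the 43 early, 103 middle, 136 late and 1234 even weak wells, pooled over plates. Right, the same for all near-unlabelled, weak and strong wells, mean and SD of 8 plates; the dotted line marks 10%. Early and late weak wells run in opposite directions, and even wells stay between 8.06% and 11.03%.

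Measures that the timing limits did not use also differed between these classes. The share of fragments on chromosome X, much of which replicates late when inactive, was 9.31% ± 0.732 in late wells against 5.18% ± 0.110 in even wells, higher in 8 of 8 plates (SD, n = 8 plate medians; two-sided exact permutation of signs, p = 0.00781, adjusted p = 0.0208 over 12 comparisons). In early wells it was 2.83% ± 0.314 against 5.19% ± 0.113, lower in 7 of 7 plates that had early wells (exact p = 0.0156, adjusted p = 0.0208). Middle wells held 4.03% ± 0.297, lower than even wells in 8 of 8 plates (exact p = 0.00781, adjusted p = 0.0208). Fragments of early wells were longer, 225 ± 12.4 bp against 201 ± 0.852 bp in even wells and higher in 7 of 7 plates (exact p = 0.0156, adjusted p = 0.0208). Those of late wells were 207 ± 4.49 bp against 201 ± 0.923 bp (exact p = 0.0156, adjusted p = 0.0208). Strong wells had 260 ± 8.89 bp and near-unlabelled wells 197 ± 1.80 bp. The pair ratio without high-count bins was 3.85 ± 1.58 in early, 1.91 ± 0.290 in middle, 1.94 ± 0.261 in late and 1.47 ± 0.0640 in even wells, and each biased class exceeded the even wells in every plate that held it (exact p = 0.00781 to 0.0156, adjusted p = 0.0208). The mitochondrial share was lower than in even wells, at 0.514% ± 0.281 in early and 0.692% ± 0.246 in late wells against 0.939% ± 0.106 and 0.969% ± 0.129 (adjusted p = 0.0312 and 0.0208, exact permutation). The classes also differed in depth, with medians of 2931 molecules in early, 1786 in middle, 2015 in late and 1567 in even wells. Across all weak wells, the median fragment length was 200 bp under 1500 molecules and 224 bp from 4000. The mitochondrial share was 0.812% and 0.464% there. What depth adds to the differences between timing classes was not tested.

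Crossing tracks with timing showed 4 kinds of weak well. Among the 156 track-bearing wells, 28 were early, 17 middle, 45 late and 66 even. The early, middle and late ones had medians of 3195 to 3387 molecules and of 230 to 239 bp fragment length. Their fragment length lay between that of the other weak wells and that of the strong wells. Their number of molecules is under that of strong wells by definition. The 45 late track-bearing wells gave 15.7% of fragments to chromosome X and 4.85% of autosomal molecules to the high-count bins, up to 26.5% in 1 CFAP20-KO well of plate 4. The 66 even track-bearing wells had a median of 1580 molecules, a fragment length of 204 bp and a chromosome X share of 5.57%. These lay near the 1567 molecules, 201 bp and 5.15% of the 1168 even wells without tracks. The median mitochondrial share of the 66 wells was higher, 1.76% against 0.886%, a difference that was not tested. Their pair ratio was 5.66 against 1.43, a gap that follows from the limit of 3 that split the 2 groups. Without tracks, 86 wells were middle, 91 late and 15 early, with medians of 1641 to 2152 molecules and 203 to 207 bp.

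The largest kind, 1168 wells that were even and without tracks, still differed from each other in timing in a repeatable way. Mean timing computed on odd-numbered chromosomes and on even-numbered chromosomes correlated across these wells by Pearson 0.944 and Spearman 0.944, and by 0.932 to 0.958 within plates, where both sets of chromosomes share a library and depth. Their mean timing had an SD of 0.0454, while counting error of a well's molecules gives 0.00701. Split into 4 equal groups by mean timing, they had chromosome X shares of 4.48%, 5.00%, 5.34% and 6.27% from earliest to latest, and 1.08%, 1.42%, 1.61% and 2.05% of molecules in high-count bins. Molecules in those bins count towards the mean timing, so their share is not separate from the split. Fragment length was 200 to 201 bp in all 4 groups, and the pair ratio was 1.37 to 1.47. Across all weak wells the odd and even chromosomes correlated by 0.973. What base composition adds to this tilt was not tested.

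A few places in single wells stood far above the scatter. The median weak well has 0.121 molecules per 200 kb window, and a window with at least 8 molecules from 1 well, outside the high-count bins, is called dense here. There were 2673 dense windows in 176 weak wells (11.6%), of which 130 wells had 1 to 10 and 46 had more. Near-unlabelled wells had 29 in 13 of 482 wells. A fixed count of 8 is easier to reach in a well with more molecules, and near-unlabelled wells hold under 1000 by definition. The wells with more than 10 dense windows had a median of 3812 molecules and those with 1 to 10 a median of 2198.5, against 1617.5 in all weak wells. In the 46 wells with more than 10, the windows were late (79.0% in the latest 20% of the genome), the median well held 14.9% of fragments on chromosome X, and 33 were classed late. In the 130 wells with 1 to 10, the median mean timing was 0.515, the fragment length 206 bp and the chromosome X share 5.20%, beside 202 bp and 5.16% in all weak wells, and 84 were classed even. Their dense windows were spread more widely, with 33.6% in the latest and 14.8% in the earliest 20%.

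Common fragile site genes held many of these windows. The gene lists were chosen with earlier results of these data known, so the shares below describe these wells and are not a test. Of the 2673 dense windows, 2316 came from the 46 wells with more than 10. The list of 25 such genes covers 1.43% of the windows tested and held 9.50% of all dense windows, 20.2% of those in wells with 1 to 10 and 7.86% of those in wells with more. By plate the share was 11.6% ± 8.07 (SD, n = 8), from 6.32% to 31.1%. The list covers 3.30% of the latest 20% of windows and held 8.35% of the dense windows there. Neuronal genes, also long and late, cover 0.719% and held 2.84%, and 2.24% in wells with 1 to 10. Cell cycle and DNA replication genes cover 0.210% and held 0.0748%, mesenchymal genes cover 0.157% and held 0.0748%, and genes of RNA polymerase II elongation and repair cover 0.165% and held 0.0374%. At least 1 dense window lay in 22 of the 25 fragile site genes, 14 of 20 neuronal genes, 2 of 24 cell cycle genes, 2 of 16 mesenchymal genes, 1 of 19 elongation and repair genes and 0 of 22 replication-dependent histone genes, beside 8.82% of all 19122 autosomal genes. Length and timing go with these counts: of genes of at least 500 kb with a timing of at least 0.7, 15 of 16 fragile site genes and 70 of 94 others had a dense window, in a median of 7.5 and 2 wells.

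NEGR1, a neuronal adhesion gene at chromosome 1:71395943-72282539, had a dense window in more weak wells than any other gene, 26 wells (4 CFAP20-KO and 22 WT). IMMP2L, encoding a mitochondrial inner membrane peptidase, at chromosome 7:110662644-111562492, followed with 20 wells on all 8 plates (4 CFAP20-KO and 16 WT); LRRN3 lies inside it and shares its molecules. WWOX at chromosome 16:78099654-79212667, an oxidoreductase gene spanning a classic fragile site, had 17 wells (2 and 15), PTPRG, a receptor phosphatase gene, 17 wells (8 and 9), and AUTS2, a neurodevelopmental gene at chromosome 7:69598475-70793506, 16 wells (2 and 14). MARCHF1, a ubiquitin ligase gene that is not on the list, also had 17 wells (4 and 13). The most recurrent single window, chromosome 7:111000001-111200000 within IMMP2L, was dense in 16 wells of 7 plates, with up to 30 molecules, and 8 of these wells had no more than 10 dense windows. That window held 2.22 times the mean window in all weak wells together and 2.28 times in near-unlabelled wells, and 0.758 times in strong wells. The NEGR1 window at chromosome 1:71800001-72000000 was dense in 14 wells of 5 plates and stood at 2.54, 2.85 and 0.954 times. Both windows were picked for being dense in weak wells, where a high level follows from that choice, and dense windows were not sought in strong wells. Of 14 windows dense in at least 8 wells, 7 lay in genes of the fragile site list.

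The well with the highest pair ratio of all weak wells, 76.9 without high-count bins, shows the pattern in the extreme. This WT well of plate 2 had 1567 molecules, a mean timing of 0.538, a spread of 0.2895 and 18 dense windows. Its fullest windows are named here by the genes they overlap. They held 25 molecules (MARCHF1), 21 (LRP1B), 19 (CCDC196 and GPHN), 18 (ROBO1), 16 (a second MARCHF1 window) and 15 (NEGR1). Other extremes were unlike it: the WT well of plate 1 with the most dense windows, 179, had 4957 molecules, a mean timing of 0.766 and 37.9% of fragments on chromosome X.

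Levels per kb are given relative to the autosomal mean of each class. Early, even and late wells were classed by the timing of the places their molecules fall in, so the order of levels across these classes restates that choice and is a description only. Fragile site genes had a median level of 1.17 in weak wells, 0.399 in early, 1.09 in even and 1.88 in late ones. Neuronal genes had 0.353, 1.04 and 1.71. The order was the opposite for mesenchymal genes of retinal pigment epithelial cultures, with 1.77 in early, 0.884 in even and 0.485 in late wells, and for elongation and repair genes, with 2.02, 1.04 and 0.758; cell cycle genes had 1.21, 0.943 and 0.582. RRM2, a ribonucleotide reductase subunit in the earliest DNA, had a level of 4.41 in early, 0.959 in even and 0.192 in late wells. It held 91 molecules in all weak wells together, and 1 well had a dense window of 9 molecules that overlapped it. CNTN6, a contactin of neurons in the latest DNA, had 0.278, 1.09 and 5.41. RAD51B, a recombination gene on the fragile site list that replicates early, had 2.01, 1.04 and 0.630. PTPRG stood high in weak wells of every plate, from 1.79 to 2.504 times the mean level, and at 1.68 ± 0.449 in near-unlabelled and 1.64 ± 0.193 in strong wells. Genes with under 50 molecules, among them all 22 histone genes and CFAP20, were too sparse for a level. That limit was set on all weak wells together, so levels in a single timing class can rest on few molecules.

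CFAP20-KO and WT weak wells were compared plate by plate on 7 measures, and none passed. The clustered share was 30.7% ± 6.58 in CFAP20-KO and 32.6% ± 4.74 in WT (SD, n = 8 plates; difference -1.91 ± 5.42, two-sided exact permutation of signs, p = 0.336, adjusted p = 0.588 over 7). Without the high-count bins, the track-bearing share was 8.63% ± 3.36 in CFAP20-KO and 11.4% ± 2.74 in WT, lower in 7 of 8 plates by a difference of -2.82 ± 2.59, and missed the threshold (exact p = 0.0234, adjusted p = 0.0820). The share with a timing bias was 17.1% ± 5.85 and 19.3% ± 6.32 (difference -2.14 ± 4.55, exact p = 0.203, adjusted p = 0.474). Mean timing was 0.525 ± 0.00506 and 0.521 ± 0.00404 (exact p = 0.164, adjusted p = 0.474), and its spread 0.276 ± 0.00285 and 0.276 ± 0.00295 (exact p = 0.609, adjusted p = 0.711). The log2 pair ratio was 1.24 ± 0.107 and 1.26 ± 0.104 (exact p = 0.461, adjusted p = 0.645). Track width was 16.3 ± 1.52 kb and 16.6 ± 1.92 kb (exact p = 0.734, adjusted p = 0.734). The mitochondrial share was lower in CFAP20-KO by 0.21 ± 0.16 on the log2 scale in 7 of 8 plates (exact p = 0.0234, adjusted p = 0.164). Each of these differences was within the spread between plates after adjustment, and such a p does not show that the genotypes were alike.

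Strong wells of the same plates gave other values for some measures. The log2 pair ratio was higher in CFAP20-KO strong wells by 0.30 ± 0.09 and the log2 mitochondrial share by 0.38 ± 0.15. In weak wells these differences were -0.03 (5 of 8 plates below 0) and -0.21 (7 of 8). Strong wells held a median of 17483 autosomal molecules in CFAP20-KO and 25127 in WT, against 1593 and 1630 in weak wells. The mitochondrial share is taken over mitochondrial and autosomal molecules together, and what the depth gap adds was not tested. The difference between the weak and the strong value was -0.32 ± 0.14 for the pair ratio and -0.59 ± 0.15 for the mitochondrial share, below 0 in 8 of 8 plates (two-sided exact permutation of signs, p = 0.00781, adjusted p = 0.0273 over 7 for each). Track width was 1.14 ± 0.432 kb greater in CFAP20-KO strong wells, and its difference from the weak wells was not called (exact p = 0.180, adjusted p = 0.252).

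Wells with a dense window of at least 8 molecules were less frequent in CFAP20-KO on each of the 8 plates, a difference that was not called after adjustment. The share of weak wells with one ran from 5.13% to 14.2% in CFAP20-KO and from 9.60% to 22.2% in WT. The ranges overlapped, but each CFAP20-KO value lay below the WT value of its plate, by 0.797 to 8.06 percentage points. The means were 9.24% ± 3.24 and 13.4% ± 3.90, with a difference of -4.19 ± 2.76 (SD, n = 8 plates; two-sided exact permutation of signs, p = 0.00781, the smallest that 8 plates allow). With this measure, which was chosen after the data were seen, added to the other 7, the adjusted p = 0.0625 missed the threshold. At 5 molecules per window the difference was -4.15 ± 8.45 with 5 of 8 plates below 0 (exact p = 0.195), and at 10 it was -2.90 ± 4.26 with 6 of 8 below 0 (exact p = 0.102). In wells under 2000 molecules the shares were 3.99% ± 2.03 and 8.14% ± 1.78, with 7 of 8 plates below 0 (exact p = 0.0156, adjusted p = 0.0938). Without chromosomes 7 and 20 they were 9.11% ± 3.25 and 12.5% ± 3.78, with 7 of 8 below 0 (exact p = 0.0156, adjusted p = 0.0938). For wells with 1 to 10 dense windows they were 6.32% ± 3.13 and 10.3% ± 4.52, with 6 of 8 below 0 (exact p = 0.0313, adjusted p = 0.125).

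**Figure D4:**
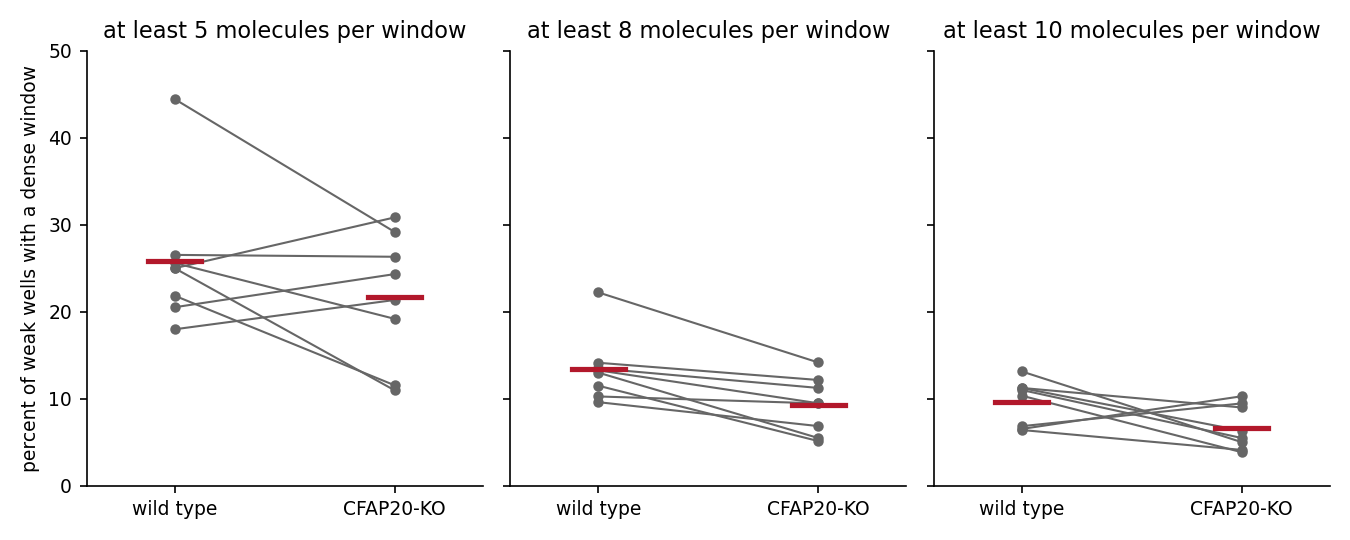
Percent of weak wells with at least 1 dense window in WT and CFAP20-KO, for windows of at least 5, 8 or 10 molecules; points are plates, lines join the genotypes of a plate and red bars are means of 8 plates. At 8 molecules all 8 lines fall, from a mean of 13.4% to 9.24%, while 5 of 8 fall at 5 molecules and 6 of 8 at 10.

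Molecules summed over weak wells were then tested along the genome with limma voom, with plate as a block and scaling by the total. Of 597 windows of 5 Mb, 10 were called at an adjusted p under 0.05 (1.68%), 8 of them lower in CFAP20-KO (1.34%). On chromosome 7, 4 windows were lower. The window at chromosome 7:70000001-75000000, which holds part of AUTS2, had 89.1 to 110 (median 104) molecules per 100000 in CFAP20-KO and 114 to 155 (median 136) in WT. The plates of the genotypes did not overlap there, and the log2 difference was -0.42 ± 0.06 (SE, adjusted p = 0.00118, limma voom). The window at chromosome 7:110000001-115000000, with part of IMMP2L, had a log2 difference of -0.30 ± 0.06 (adjusted p = 0.0179). The windows at chromosome 7:130000001-135000000 and 7:105000001-110000000 had -0.25 and -0.21, and the first window of chromosome 20 had -0.28 (adjusted p = 0.0397, 0.0463 and 0.0179, limma voom). These 3 windows stayed called in 3, 1 and 7 of 8 fits with 1 plate left out.

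These 5 windows were lower in CFAP20-KO in strong wells too, and by more. There the log2 differences were -0.67, -0.66, -1.01, -0.77 and -0.88, and for the first window of chromosome 20 the strong wells had 64.9 to 115 molecules per 100000 in CFAP20-KO and 117 to 172 in WT, without overlap. Of 32 windows on chromosome 7, 18 were called lower in CFAP20-KO strong wells, against 13.3% of all windows. Weak and strong wells are different wells of the same plates. DNA copy number, replication and recovery cannot be told apart in these values. The other 5 called windows were on chromosomes 6, 16, 17, 19 and X. The window at chromosome 19:20000001-25000000, with a cluster of zinc finger genes, was lower by 0.51 on the log2 scale in weak wells and higher by 0.26 in strong wells, and the windows at chromosome 6:90000001-95000000 and X:75000001-80000000 were higher in CFAP20-KO by 0.31 and 0.29.

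Of 1970 genes with a mean of at least 10 molecules per library, 8 were called (0.406%), 7 of them lower in CFAP20-KO (0.355%). From the fragile site list 24 genes were tested, and 5 were called, all lower: NEGR1, AUTS2, IMMP2L, CDH13 and EXOC4. The list was put together with earlier results of these data known, and the same wells gave the dense windows above, so these are not separate evidence. The list's median log2 difference was -0.03, beside 0.02 for all genes tested. NEGR1 had 47.0 to 130 (median 88.03) molecules per 100000 in CFAP20-KO and 87.4 to 259 (median 159) in WT, and was lower by 0.77 ± 0.14 on the log2 scale in 6 of 8 plates (SE, adjusted p = 0.000778, limma voom). IMMP2L had 57.7 to 87.5 (median 79.6) and 84.8 to 184 (median 113), lower by 0.66 ± 0.11 in 8 of 8 plates (adjusted p = 0.000292). AUTS2 was lower by 0.72 ± 0.13 (adjusted p = 0.000778), CDH13, a cadherin gene, by 0.57 ± 0.11 (adjusted p = 0.00149) and EXOC4, an exocyst subunit gene on chromosome 7, by 0.57 ± 0.12 (adjusted p = 0.00984, limma voom). WWOX had -0.39 ± 0.10 and did not pass (adjusted p = 0.0726), and CSMD1 had 0.18 ± 0.10 (adjusted p = 0.841). None of the 18 neuronal, 2 cell cycle and 2 mesenchymal genes tested was called. The remaining 3 calls were ARMCX5-GPRASP2, a read-through gene that overlaps its neighbours, and IL1RAPL2, a receptor accessory gene, both on chromosome X and lower, and PCDH15, a protocadherin gene, higher by 0.45 ± 0.10 (adjusted p = 0.0244).

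These calls were lost without the wells that held a dense window. Those wells were picked for many molecules at single places and were more often WT, 107 against 69, so leaving them out had to shrink the differences at such genes and is no separate test. With those 176 wells left out, none of 1583 genes and none of 597 windows was called (limma voom), with 62 genes and 39 windows at an unadjusted p under 0.05. NEGR1 then had a log2 difference of -0.09 ± 0.11, IMMP2L of -0.20 ± 0.12, AUTS2 of -0.27 ± 0.11 and PCDH15 of 0.05 ± 0.08. Among the windows, the first of chromosome 20 went from -0.28 to -0.19 ± 0.05 and that at 70000001-75000000 of chromosome 7 from -0.42 to -0.18 ± 0.06, neither called (adjusted p = 0.193 and 0.464, limma voom). In strong wells, IMMP2L, AUTS2 and EXOC4, all on chromosome 7, were lower in CFAP20-KO by 0.57, 0.49 and 0.86 on the log2 scale, while NEGR1 had 0.30 ± 0.10 (adjusted p = 0.107) and CDH13 0.22 ± 0.09 (adjusted p = 0.246, limma voom). IL1RAPL2, lower by 0.51 ± 0.12 in CFAP20-KO weak wells (adjusted p = 0.0339), was higher by 0.36 ± 0.08 in CFAP20-KO strong wells, in 8 of 8 plates (adjusted p = 0.00573, limma voom). Its call in weak wells held in 4 of 8 fits with 1 plate left out. Whether weak and strong wells differ at these genes was not tested.

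**Figure D5:**
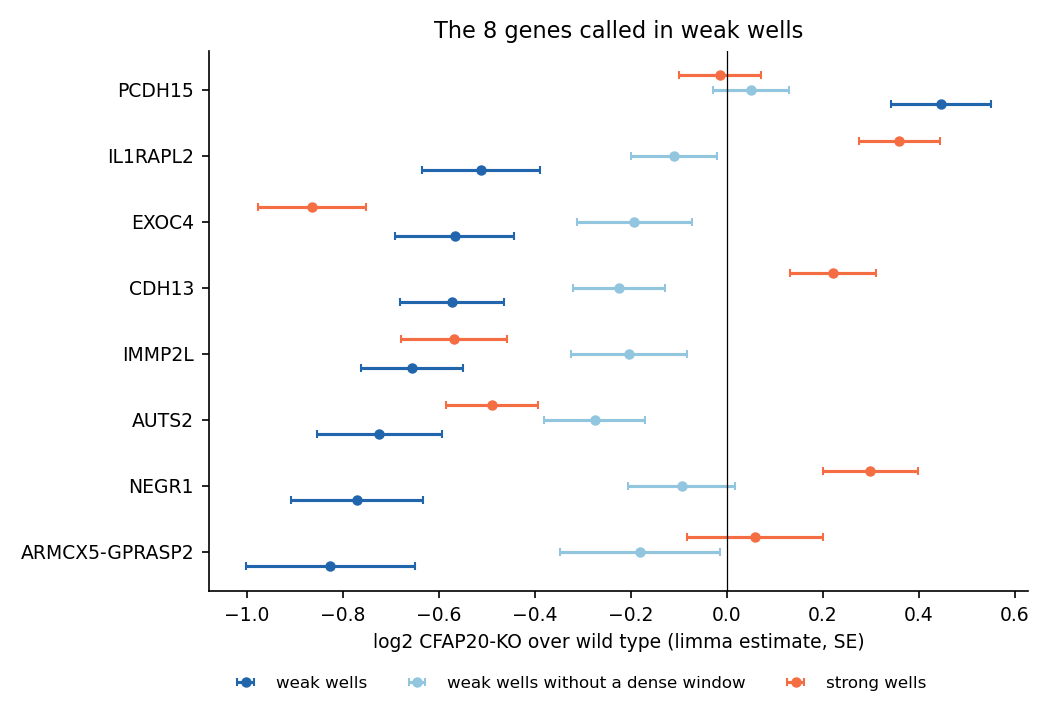
Log2 difference of CFAP20-KO from WT (limma voom estimate, bars are SE) for the 8 genes called in weak wells, in all weak wells, in weak wells without a dense window, and in strong wells. The estimates for all weak wells lie farther from 0 than those without dense-window wells, as for NEGR1 with -0.77 against -0.09.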

How the data were processed

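The authors deposited, per the file headers, 1 row per fragment with its well, chromosome, position, signed length and genotype; these values are positions and lengths, not scaled in any way. Coordinates are on GRCh38, as the submitters' processing notes name it, with the aligner, mapping filters and duplicate handling not given in the sources used here. Every row was taken as 1 molecule, and 1746070 to 4181840 rows came from each plate. Positions were read as given, and gene bounds were those of RefSeq on that build, used without strand, so overlapping genes share molecules. Genotypes were paired by plate, since each plate holds wells of both. Single values were tested by exact sign-flip permutation over 8 plates with Benjamini-Hochberg adjustment per family. Molecules summed per gene or 5 Mb window, plate and genotype were tested with limma 3.58.1 (voom) in R 4.3.3, with a mean of at least 10; other steps used Python with numpy and pandas. Scripts were tested on simulated data. Named genes are the 2 earliest and 2 latest of each list with at least 50 molecules, CFAP20, up to 10 called genes each way, and, chosen after their values were seen, those with recurrent dense windows. The members and gene lists were chosen with earlier results of these data known. Alternatives left out each plate, the plate block, high-count bins, repeated positions, chromosomes 10 and 12 or the wells at the ends of the range, or changed scaling, filter, bin size and limits. No genome sequence was used, so base composition was not analysed here.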

Additional observations from a re-analysis of the deposited data

Results flagged for a closer look

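The difference in spread of timing between weak and strong wells was 0.0682 on plate 8, apart from the other plates, which reached 0.0955. The median share of a weak well's molecules in the high-count bins was 1.71% on plate 7, against 1.42% to 1.56% on the other plates. About 1 in 20 groups of 8 plates is marked in this way by chance, and plate 8 also had the largest share of weak wells with a timing bias, 28.8%. The genotype difference in log2 pair ratio differed between weak and strong wells by -0.32, and that in log2 mitochondrial share by -0.59, each by a test of the difference itself (exact sign-flip permutation over 8 plates, adjusted p = 0.0273). Strong CFAP20-KO wells also held fewer autosomal molecules than strong WT wells, and what that adds was not tested.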

How the results depend on the processing

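For the 11 paired comparisons, 153 alternatives were run, and 148 kept the direction and the side of the threshold; the lowest adjusted p for any genotype comparison was 0.0820, for the clustered share without high-count bins. The sign changed in 5, none of them called: track width was 0.254 kb higher in CFAP20-KO in wells of 1500 to under 4500 molecules, the log2 ratio of weak over near-unlabelled wells was -0.0129 with repeated positions collapsed, and leaving out 1 plate gave -0.921 to 0.163 kb for track width and -0.00117 to 0.000144 for the spread of timing. Without the plate block, the exact p of the 7 genotype comparisons ranged from 0.109 to 0.746. Called 5 Mb windows numbered 3 to 11 with 1 plate left out (5, 4, 6 and 3 without plates 3, 5, 7 and 8), and 0 without dense-window wells. Of the 8 fits with 1 plate left out, chromosome 7:70000001-75000000 stayed called in 8 and 7:110000001-115000000 in 6. The called window of chromosome 16 stayed called in 6, that of 19 in 4, of 6 in 3, of X in 2 and of 17 in 0. Called genes numbered 5 to 11 with 1 plate left out (5 without plate 1), 4 with no replicate block, 20 with no filter on low molecules and 0 without dense-window wells. The alternative without dense-window wells was chosen after seeing the data. NEGR1, AUTS2, IMMP2L and CDH13 stayed called with each plate left out (highest adjusted p = 0.0282), NEGR1 not without the block (adjusted p = 0.0533, limma voom). EXOC4 and ARMCX5-GPRASP2 stayed called in 5 of these 8 fits, IL1RAPL2 in 4 and PCDH15 in 3. Without the block EXOC4 stayed called, while ARMCX5-GPRASP2, IL1RAPL2 and PCDH15 did not (adjusted p = 0.303, 0.427 and 0.253, limma voom). Leaving out 1 plate moved the dense-window difference from -4.67 to -3.64 (adjusted p = 0.0938). The limits are the few molecules per well, the 8 plates, and classes cut from continuous measures.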
